A study of Mus musculus with 4 samples.

Results

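The nuclear receptor genes *Nr2e1*, *Nr2f1*, *Nr2f2*, *Nr2f6*, *Esrrb*, *Esrrg*, *Rorb*, *Thra*, *Thrb* and *Rxrg*, were followed through cochlear ducts of mouse embryos with and without the transcription factor gene *Tbx2* in SOX2-positive cells. The members were taken by symbol from the gene annotation of the array, 10 of its 29924 gene names, and they were read by 17 probes in 68 spots per array. The set was chosen with the mutant over control ratios of these arrays known. These ratios are therefore given as a description with no p value. The fit over all genes also holds the 10 receptors, and the numbers that passed it are given without anything being read from them. Results of tests are given for the sex of the pools and for genes outside the set.

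The study asked which transcripts differ between *Sox2-Tbx2LOF* and control ducts at E14.5 (embryonic day), after the dams had received 4 mg of tamoxifen by mouth at E12.5. The mutants were *Sox2(creERT2);Tbx2(fl/fl)* embryos on the NMRI background, in which CreERT2, a Cre recombinase that works only with tamoxifen, is driven by the *Sox2* locus. The methods describe the controls as cre-negative, and the labels give them as *Tbx2(fl/n.d.)*, with the other allele not determined. Mutants and controls thus shared the tamoxifen and differed in CreERT2 and its insertion at *Sox2* as well as in the deletion. Each of 4 Agilent 2-colour arrays held 1 pool of mutant and 1 pool of control ducts, female on arrays 1 and 2 and male on arrays 3 and 4. Mutant RNA carried the dye Cy5 on arrays 1 and 3 and Cy3 on arrays 2 and 4. The pools were independent, but each mixed ducts of several embryos, so the spread describes pools and not single animals.

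Nuclear receptors are transcription factors that bind DNA through a zinc finger domain and carry a second domain for a small ligand. The thyroid hormone receptors act mostly together with a retinoid X receptor and switch from repressing to activating their targets when the hormone is bound. Orphan receptors such as the NR2, ERR and ROR groups were named before a natural ligand was known for them. In the inner ear, *Thrb* and *Esrrb* are required for hearing, and *Nr2f1* shapes the length of the cochlear duct and the number of its hair cell rows.

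The measurements of all genes frame those of the receptors. Median spot intensities ranged from 263 to 292 in Cy3 and from 496 to 563 in Cy5, and 0 gene spots were saturated. The *Tbx2* probe had log2 ratios of mutant over control of −0.25, −0.053, −0.13 and −0.031 on arrays 1 to 4, a mean of −0.12 ± 0.098 (SD, n = 4) that did not pass the test (limma adjusted p = 0.124). Whether this probe lies in the deleted stretch was not analysed here. The *Sox2* ratio was 0.012 ± 0.18 (limma adjusted p = 0.935). In such bulk RNA, fewer cells of a type and less RNA per cell cannot be told apart. Each of 10 cochlear duct epithelium markers was detected above background in every one of the 8 pools, and the 4 arrays limit the precision of every value.

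*Nr2e1*, also known as Tailless or TLX, encodes an orphan receptor that keeps neural stem cells of the brain and retina dividing and acts mainly as a repressor. It showed the largest ratio of the set, 1.21 ± 0.25 on the log2 scale (SD, n = 4), or 2.31-fold higher in the mutant, and ranked 5 of 21042 tested genes by size of ratio. Its probe lies on the minus strand at chr10:42281826-42281885 of mm9. The start of the probe and the promoter of the gene are shown because this receptor had the largest ratio of the set. The probe is given by its first 30 of 60 bases, and the promoter is the RefSeq sequence at chr10:42583561-42583840 of GRCm38.p6, minus strand, from 250 bases before to 30 bases after the start of the gene.
Nr2e1 probe: gcttagcataggatgagtcaaacttctctt
Nr2e1 promoter: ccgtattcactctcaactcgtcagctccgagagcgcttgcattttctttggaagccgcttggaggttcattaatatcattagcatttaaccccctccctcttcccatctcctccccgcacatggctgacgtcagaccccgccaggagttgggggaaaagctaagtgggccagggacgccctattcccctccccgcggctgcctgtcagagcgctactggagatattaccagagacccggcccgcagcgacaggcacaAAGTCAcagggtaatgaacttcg
The capitals mark AAGTCA, the hexamer that the NR2E1 protein is known to bind, which begins 8 bases after the start. It was set in capitals after the match was seen.

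The search covered 300 bases of each RefSeq promoter, of which 280 are printed for *Nr2e1*, whose searched window is chr10:42583541-42583840. Of 7 motifs searched on both strands, this hexamer was held by 15.1% of 32851 promoters and by 2 of the 17 promoters matched to 9 members, those of *Nr2e1* and *Esrrb*. *Thra* had no entry. The T-box motif AGGTGTGA occurred in 1.28% of all promoters and in 0 of the 17, and GGTGTGA in 3.98% and in 0. The shorter GGTGTG, which lies within both, occurred in 19% of all promoters and in 4 of the 17, 3 of *Esrrg* and 1 of *Esrrb*. The nuclear receptor hexamer AGGTCA was present in 16.3% of all promoters and in 1 each of *Rxrg* and *Thrb*, its longer form AAGGTCA in 4.72% and in the same *Rxrg* promoter, and TGACCTTTG, known for the ERR group, in 0.478% and in 0 of the 17. A match describes letters in this window and not a bound site.

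In the mutant pools, the normalized log2 signal of *Nr2e1* was 11.55 on array 1, 12.04 on array 2, 11.75 on array 3 and 11.98 on array 4. In the control pools of the same arrays it was 10.20, 10.55, 10.78 and 10.95. The lowest mutant pool lay above the highest control pool, and the spread was similar in both groups (11.83 ± 0.23 in the mutant and 10.62 ± 0.32 in the control, SD, n = 4). The ratios on the 4 arrays were 1.35, 1.5, 0.97 and 1.03, higher in the mutant on 4 of 4. The mean was 1.16 with the mutant in Cy5 and 1.26 with the mutant in Cy3. Across 14 alternative ways of processing, the ratio stayed between 1.09, without array 2, and 1.33, without array 4. Several of these could not change it. *Nr2e1* has 1 probe, above background in every pool, so the dim-probe filters and the mean over probes had to return 1.21. With the dyes balanced over the arrays, so did the fits with no dye term and with separate channels.

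**Figure D1:**
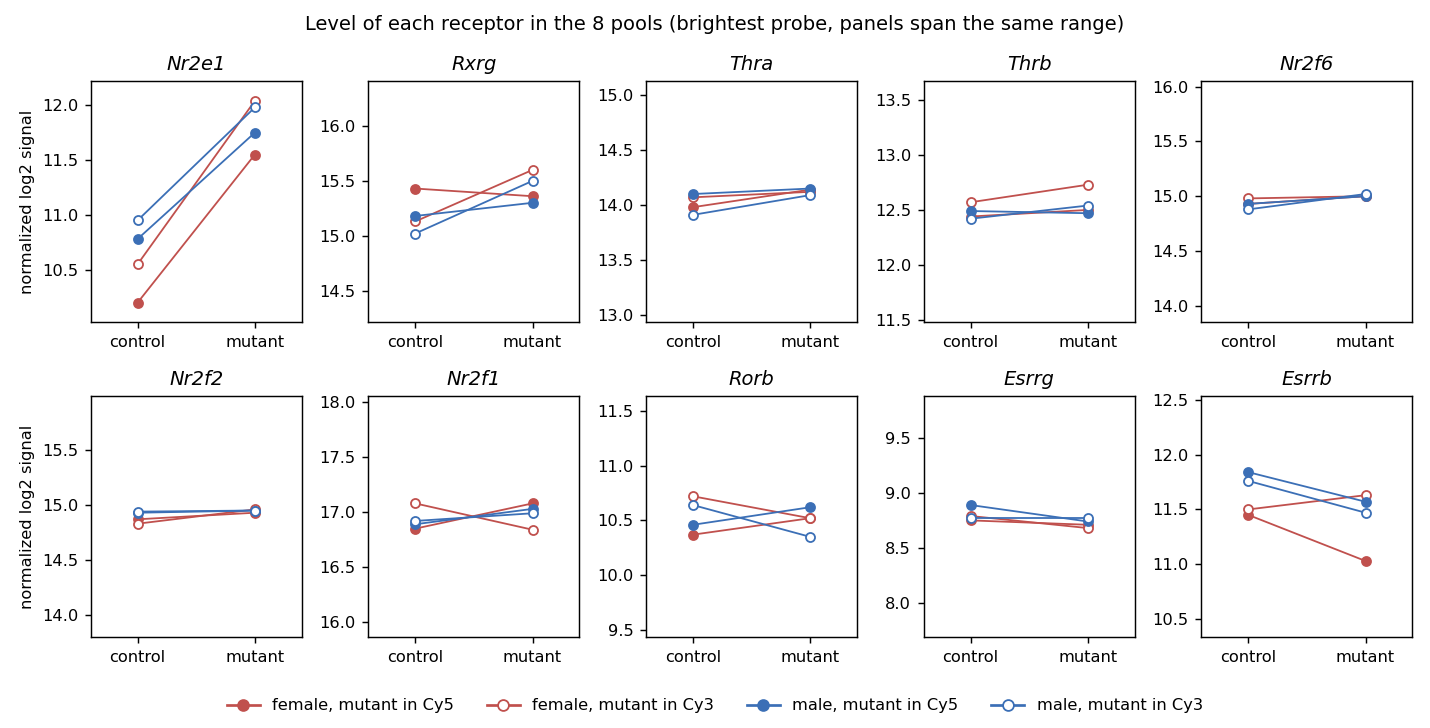
Normalized log2 signal of the brightest probe of each receptor in the control and mutant pool of each array, with a line joining the pools of 1 array, colours for sex and filled or open points for the dye of the mutant. Every panel spans the same range, and the 4 mutant pools of *Nr2e1*, at 11.55 to 12.04, lie above the 4 controls, at 10.20 to 10.95, while the non-overlapping *Nr2f6* pools lie between 14.88 and 15.02.

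The female arrays carried the larger *Nr2e1* ratios, with a mean of 1.42 against 1.00 on the male arrays. The difference was 0.42 (limma SE 0.084). Female control pools, at 10.20 and 10.55, lay below male control pools, at 10.78 and 10.95, while the mutant pools of the sexes overlapped. This interaction of genotype and sex had a limma adjusted p of 1.00 over all genes, so it did not pass. The fit left only 1 residual degree of freedom. On simulated data it made false calls in numbers that depended on the simulated spread, so its unadjusted p values may be too small. Which simulated spread is nearer to the real data was not tested. Of all genes, 0% passed the interaction test, with a smallest adjusted p of 0.236, and 2.65% had an unadjusted p below 0.05, among them 1 of the 10 receptors, *Nr2e1*. Female levels of *Nr2e1* were 0.28 lower on the log2 scale over both genotypes (difference −0.28, SE 0.18, limma adjusted p = 1.00), which did not pass either. This difference rested on single arrays, with −0.072 without array 1 and −0.49 without array 2.

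The genes whose 4 ratios lay closest to those of *Nr2e1*, by Euclidean distance over the 4 arrays, were *Fgfr3* (distance 0.43), *Crhr1* (0.52), *Dcun1d1* (0.54), *BC048679* (0.72) and *Ptpn5* (0.74). *Fgfr3*, a receptor for fibroblast growth factors, had ratios of 0.92, 1.5, 0.94 and 1.08, lower than *Nr2e1* on array 1 and close to it on arrays 2, 3 and 4. *Crhr1*, the receptor for corticotropin-releasing hormone, had 0.91, 1.27, 1.14 and 1.05. Distances over 4 arrays rank genes by the size of the ratio as much as by its pattern.

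*Nr2f2* and *Nr2f6* had small ratios. *Nr2f2* (COUP-TFII), a receptor of mesenchyme and vessels in many organs, was read at chr7:77496873-77496932 of mm9 with mutant levels of 14.93, 14.96, 14.95 and 14.95 and control levels of 14.87, 14.83, 14.93 and 14.94. Its ratio was 0.056 ± 0.052, above 0 on 4 of 4 arrays, with a mutant pool below the highest control pool. *Nr2f6*, a close relative that represses cytokine genes in lymphocytes, was read at chr8:73898098-73898157 and had mutant levels of 15.00, 15.00, 15.00 and 15.02 against 14.93, 14.98, 14.93 and 14.88 in the controls. All 4 mutant pools of *Nr2f6* lay above all 4 control pools, although the ratio was only 0.075 ± 0.049, or 1.05-fold. Separation of the pools in this direction was seen for 2 of the 10 receptors, *Nr2e1* and *Nr2f6*, and for 1.73% of all genes, and in the other direction for 0 of the 10 brightest probes and for 2.54% of all genes. Since the set was chosen on these ratios, nothing is read from these counts.

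*Nr2f1* (COUP-TFI) was read by a pair of probes that differed. Their first 30 bases are shown because the direction of the ratio depended on the probe. The brighter one lies on the minus strand at chr13:78328723-78328782 of mm9 and the other at chr13:78328290-78328349, with 433 bases between their starts.
Nr2f1 brighter probe: ctgatctgtaagtacattggaaaggaaaga
Nr2f1 other probe: atttttgatataaccctttgcttcttataa
The brighter probe had ratios of 0.24, −0.24, 0.14 and 0.075, a mean of 0.053 ± 0.21, and its mutant levels (17.08, 16.84, 17.03 and 16.99) overlapped those of the controls (16.85, 17.08, 16.89 and 16.92). The other probe had ratios of −0.22, −0.13, −0.29 and −0.39, a mean of −0.26 ± 0.11. All 4 mutant pools of that probe (16.65, 16.56, 16.53 and 16.54) lay below all 4 control pools (16.88, 16.69, 16.82 and 16.93). The brighter probe gave the higher ratio on 3 of 4 arrays, by 0.31 ± 0.28 (SD, n = 4). The mean over both probes was −0.10. No direction for *Nr2f1* held across both probes.

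**Figure D2:**
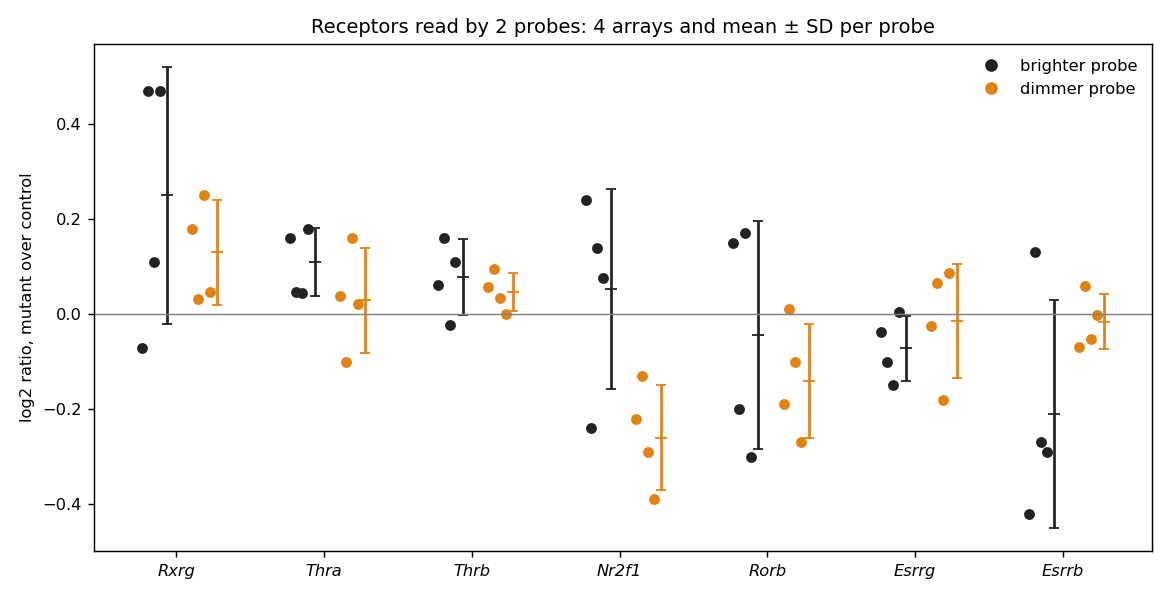
Log2 ratios of mutant over control for the 7 receptors read by a pair of probes, with points for the 4 arrays and bars for mean ± SD of each probe. The probes of *Nr2f1* lie on opposite sides of 0 in the mean (0.053 and −0.26), and the dimmer *Esrrb* probe was not well above background in any pool.

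*Rxrg*, the retinoid X receptor gamma and a partner of the thyroid hormone receptors, had the next largest ratio of the set after *Nr2e1*, 0.25 ± 0.27. Its probes lie on the plus strand at chr1:169569624-169569683 and chr1:169569496-169569555 of mm9, 128 bases apart. Their starts are shown because their ratios differed between the dye orientations in opposite directions. Each orientation held different pools, and the cause was not tested.
Rxrg brighter probe: aggtctttccggcagttcttgggaagagtg
Rxrg other probe: ctggcctcccttcctgtccccaaaatgtga
The brighter probe had mutant levels of 15.36, 15.60, 15.30 and 15.50 and control levels of 15.43, 15.13, 15.18 and 15.02, which overlapped. Its ratios were −0.072, 0.47, 0.11 and 0.47. The mean was 0.021 on the arrays with the mutant in Cy5 and 0.47 on those with the mutant in Cy3. At the other probe the ratios were 0.18, 0.032, 0.25 and 0.046, a mean of 0.13 ± 0.11, above 0 on 4 of 4 arrays and larger with the mutant in Cy5. The mean over both probes was 0.19.

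The thyroid hormone receptors differed little between mutant and control pools. *Thra*, which encodes the receptor that prevails in most embryonic tissues, was read by its brighter probe at chr11:98626356-98626415 with mutant levels of 14.14, 14.12, 14.15 and 14.09 and control levels of 13.98, 14.07, 14.10 and 13.91. The ratio was 0.11 ± 0.071, above 0 on 4 of 4 arrays, and the pools overlapped by the mutant pool of array 4. The other *Thra* probe, whose 60 bases span 807 bases of the genome from 98617475 to 98618281, gave 0.029 ± 0.11, above 0 on 3 of 4.
*Thrb*, whose product is needed for the development of hearing, was read by its brighter probe at chr14:18868800-18868859 with mutant levels from 12.47 on array 3 to 12.73 on array 2 (12.56 ± 0.12) and control levels of 12.44, 12.57, 12.49 and 12.42. Its ratios were 0.062, 0.16, −0.023 and 0.11, a mean of 0.079 ± 0.080. The other *Thrb* probe, at chr14:18869432-18869491, gave 0.046 ± 0.040. For both receptors the ratio was of the size of its own spread, and mutant and control pools overlapped.

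Of the estrogen-related receptors, which bind no estrogen and are known for genes of energy metabolism, *Esrrb* had the lowest ratio of the set. It was read at chr12:87862509-87862568 with mutant levels of 11.03, 11.63, 11.57 and 11.47 and control levels of 11.45, 11.50, 11.84 and 11.76. The ratios were −0.42, 0.13, −0.27 and −0.29, a mean of −0.21 ± 0.24. The mutant pool was lower on 3 of 4 arrays and higher on array 2, and the groups overlapped. Without array 2 the mean was −0.32, and without array 4 it was −0.11 under the dye term. *Esrrg* was read at chr1:190038192-190038251 with ratios of −0.038, −0.10, −0.15 and 0.0039, a mean of −0.072 ± 0.068, and its other probe gave −0.015 ± 0.12.

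*Rorb*, a receptor of the ROR group that acts in the retina and the cortex, had ratios that split by the dye of the mutant. Its brighter probe at chr19:19006883-19006942 had ratios of 0.15 and 0.17 with the mutant in Cy5 and of −0.20 and −0.30 with the mutant in Cy3, which averaged to −0.044 ± 0.24. The mutant levels were 10.52, 10.52, 10.62 and 10.35 and the control levels 10.37, 10.72, 10.46 and 10.64, so the groups overlapped. Its other probe, 5266 bases away, gave −0.14 ± 0.12 with little difference between the dye orientations.

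**Figure D3:**
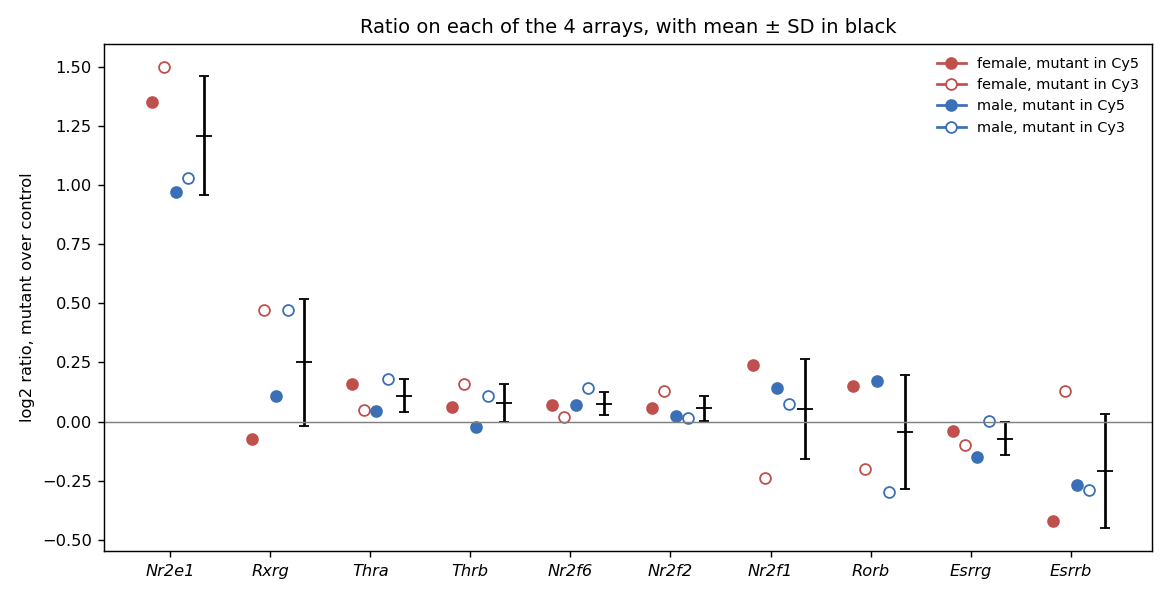
Log2 ratio of mutant over control of the brightest probe of each receptor on the 4 arrays, with the mean ± SD in black, colours for sex and filled or open points for the dye of the mutant. The *Nr2e1* points lie between 0.97 and 1.5, and for each of the 9 other receptors no array exceeds 0.47.

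Ordered by ratio, the receptors ran from *Nr2e1* through *Rxrg*, *Thra*, *Thrb*, *Nr2f6*, *Nr2f2*, *Nr2f1*, *Rorb* and *Esrrg* to *Esrrb*. The gap of 0.96 between *Nr2e1* and *Rxrg* was larger than the SD of either and had the same sign on 4 of 4 arrays. None of the 8 further gaps between neighbours, 0.0032 to 0.14, exceeded the larger of the SDs beside it. Levels of different receptors were not ordered, since brightness differs between probes. Calls required a limma adjusted p below 0.05 together with a change of 1.5-fold or more. By this rule 1 of the 10 receptors, *Nr2e1*, was higher in the mutant beside 0.133% of all genes, and 0 were lower beside 0.309%. By the adjusted p alone, 2 were higher (*Nr2e1* and *Rxrg*) beside 2.26% of all genes, and 0 were lower beside 2.92%. The median ratio was 0.066 for the 10 receptors and 0.0024 for all genes, and the median size of the ratio was 0.077 and 0.043. Of the 10, 4 had ratios above 0 on 4 of 4 arrays, as did 8.85% of all genes. All of these counts come from the contrast that chose the set, so nothing is read from them.

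Sex, which had no part in the choice, gave no passing difference for any of the 10 receptors. Over the 8 pools, 0.0618% of all genes differed between female and male pools (13 genes, 6 higher and 7 lower in females), and 0 receptors did in the limma fit, with an adjusted p of 1.00 for each. An unadjusted p below 0.05 was found for 0 receptors and for 3.36% of all genes. The differences of largest size were those of *Nr2e1* and of *Esrrb*, which was lower in female pools (difference −0.26, SE 0.14, limma adjusted p = 1.00). Without array 1 the *Esrrb* difference was −0.093, and without array 2 it was −0.42. For *Rxrg* the female level was 0.13 higher (SE 0.067), and for the other 7 receptors the difference lay between −0.055 and 0.080.

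Other members of the family gave the setting for these values. Of 39 further nuclear receptor genes, 30 were tested, 1 was called higher (beside 0.133% of all genes) and 0 lower, and their median ratio was 0.048. The called gene was *Esr1*, the estrogen receptor alpha, part of which is fused to Cre in CreERT2. It was well above background in all 4 mutant pools and in 0 control pools, so it entered the test only through the mutant pools, and 0 further receptors were called higher when all 8 measurements had to be above background. In the mutant pools, which also carried CreERT2, the *Esr1* signal exceeded that of the control pools by a factor of 4.24 or more. This lower bound was set by the dimmest probes above background (mean log2 signal 8.68 against a limit of 6.59 and a measured 6.51). Whether the probe reads CreERT2, *Esr1* itself or both was not tested. By the adjusted p alone, *Nr4a1*, an immediate early receptor, fell on 4 of 4 arrays (−0.36 ± 0.050, limma adjusted p = 0.000958). Its relative *Nr4a2* rose (0.23 ± 0.24, limma adjusted p = 0.0288), on 3 of 4 arrays, as did *Nr5a2* (0.21 ± 0.11, adjusted p = 0.0250 in limma) and *Nr1i3* (0.17 ± 0.091, adjusted p = 0.0383 in limma) on 4 of 4. *Nr4a1*, *Nr4a2*, *Nr5a2* and *Nr1i3* were singled out with their values in view. *Rxra* and *Rxrb*, which serve as partners like *Rxrg*, had ratios of −0.024 ± 0.027 and 0.051 ± 0.22, and *Rora*, a relative of *Rorb*, 0.0020 ± 0.083. None of these 3 passed the test in limma, with adjusted p of 0.489 or more.

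**Figure D4:**
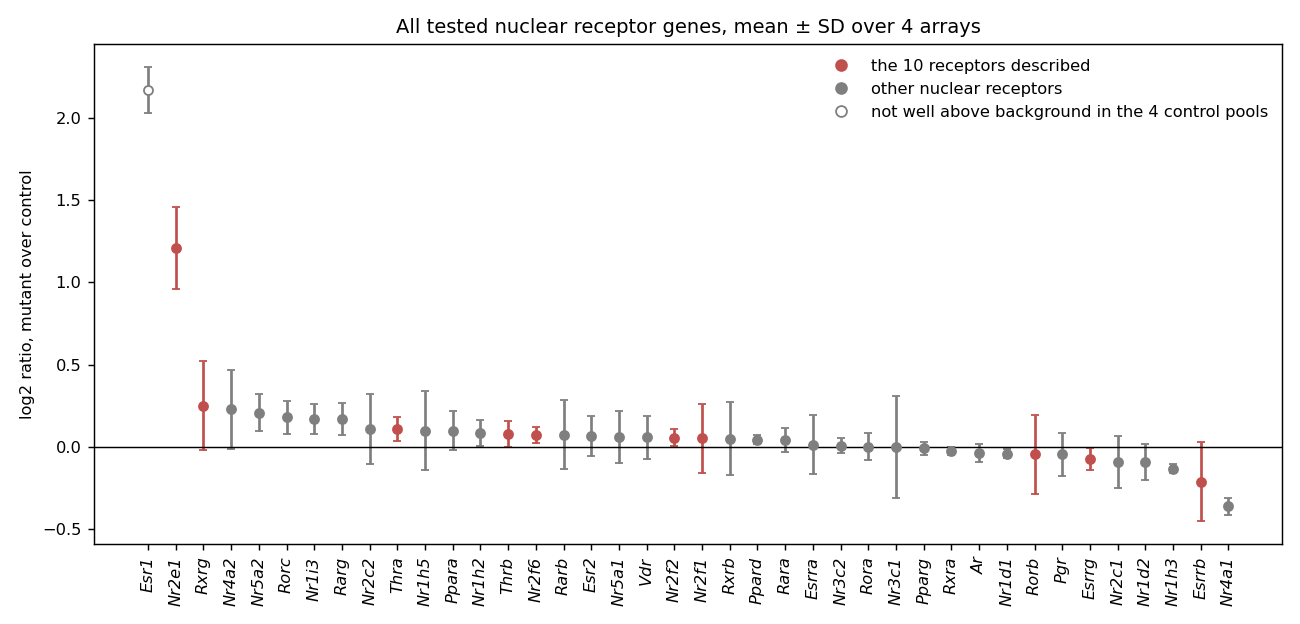
Log2 ratio of mutant over control (mean ± SD over 4 arrays) of the 10 receptors in red and of 30 other tested nuclear receptor genes in grey, ordered by ratio. *Nr2e1* at 1.21 stands between *Esr1*, whose open point marks control pools not well above background, and *Rxrg* at 0.25.

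The handling of thyroid hormone was followed with 11 genes for its transport, activation and response, all of them tested. None was called, and by the adjusted p alone 3 fell and 0 rose (beside 2.92% and 2.26% of all genes), with a median ratio of −0.029. *Ttr*, the carrier transthyretin, fell on 4 of 4 arrays (−0.28 ± 0.071, limma adjusted p = 0.00611). *Dio3*, the deiodinase that inactivates the hormone, had ratios of −0.46, −0.072, −0.35 and 0.037 (mean −0.21 ± 0.23, limma adjusted p = 0.0243) and was well above background in only 2 mutant and 2 control pools. *Dio2*, which activates the hormone in the cochlea, had 0.065 ± 0.086 (limma adjusted p = 0.363), and the hormone-responsive genes *Klf9* and *Hr* had 0.14 ± 0.20 and 0.0075 ± 0.051, neither passing.

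Coregulators, the proteins through which these receptors repress or activate, did not pass for any of the 21 genes listed, all tested, and their median ratio was 0.035. The largest ratios were those of *Ppargc1a*, the PGC-1 alpha coactivator of the ERR group (0.20 ± 0.18, limma adjusted p = 0.115), and *Zfpm2*, the partner FOG2 of COUP-TFII (0.15 ± 0.27, limma adjusted p = 0.116). *Ncor1*, a corepressor of the unliganded thyroid hormone receptors, had 0.070 ± 0.10. *Atn1*, of the atrophin family that binds *Nr2e1* protein, had 0.0087 ± 0.14.

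Among 6 genes known to be regulated by *Nr2e1* in neural stem cells, all tested, 0 were called (beside 0.133% of all genes called higher) and 2 rose by the adjusted p alone (beside 2.26%). *Cdkn1a*, the cell cycle inhibitor p21, rose on 4 of 4 arrays with ratios of 0.24, 0.20, 0.29 and 0.26 (0.25 ± 0.036, limma adjusted p = 0.00722). *Aqp4*, a water channel, rose on 4 of 4 with 0.23, 0.28, 0.23 and 0.17 (0.23 ± 0.042, limma adjusted p = 0.0130). *Cdkn1a* and *Aqp4* are both known as genes that *Nr2e1* represses in that setting. The other 4 genes did not pass, among them *Gfap* at −0.029 ± 0.14, *Wnt7a* at −0.073 ± 0.10 and *S100b* at −0.10 ± 0.27, and the median of the 6 was −0.035.

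Markers of other tissues were read in the same fit. Of 12 neuron markers 11 were tested (*Neurod1* was not), 4 were called lower (*Elavl3*, *Ina*, *Nefm* and *Pou4f1*, beside 0.309% of all genes) and 7 had ratios below 0 on 4 of 4 arrays (beside 9.31%). By the adjusted p alone 7 neuron markers fell (beside 2.92% of all genes) and 1 rose (beside 2.26%). The gene that rose was *Isl1* (0.20 ± 0.16, limma adjusted p = 0.0245), on 4 of 4 arrays. The median of the neuron markers was −0.39, and their summed normalized signal was 4.99e4 to 5.67e4 in mutant and 5.05e4 to 5.33e4 in control pools. Of 7 Schwann cell precursor markers 3 were called lower (*Cdh19*, *Foxd3* and *Ngfr*), 1 rose by the adjusted p alone, and the list had a median of −0.085 and sums of 1.63e5 to 1.90e5 in mutant and 1.56e5 to 1.91e5 in control pools. Of 8 mesenchyme markers 5 were above 0 on 4 of 4 arrays (beside 8.85% of all genes) and 1 passed the adjusted p, *Col1a1* (0.27 ± 0.12, limma adjusted p = 0.00448). The mesenchyme sums were 2.39e5 to 2.62e5 in mutant and 2.19e5 to 2.30e5 in control pools, and those of 5 endothelium markers 1.90e4 to 1.97e4 and 1.74e4 to 1.87e4. The sums of the cochlear duct epithelium markers were 3.44e5 to 3.66e5 in mutant and 3.15e5 to 3.46e5 in control pools. Of the endothelium, melanocyte, blood and macrophage markers 0 passed in limma by the adjusted p. Of the 10 epithelial markers, *Gata3* and *Emx2* rose and *Lfng* and *Jag1* fell by the adjusted p alone. The part of these tissues in the receptor ratios was not tested.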

How the data were processed

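Total RNA of 8 pools was hybridised to 4 2-colour arrays, read with Agilent Feature Extraction 10.7.3.1 according to the submitters' processing notes. The intensity values deposited by the authors are each spot's mean signal and median local background, not normalized, and processed intensity with background subtracted and dyes normalized. The log10 ratio in the deposited files divides the processed Cy5 signal by that of Cy3 and served to check the direction (r = 0.897 to 0.927 with the ratios computed here). The score deposited by the authors in the series value table matches a fold change of mutant over control with a sign, and its normalization is not given in the sources used here. It was used only as an alternative.

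Background was corrected by normexp (offset 50), ratios by loess within each array without control spots and flagged spots (8.29% to 8.56%), and spots of a probe were averaged. Channel levels were further normalized by Aquantile. Probes well above background (on at least 50% of spots) in at least 4 of 8 channel measurements were tested, and the brightest stood for its gene. Genes were fitted with limma 3.58.1 in R 4.3.3, with genotype and dye terms, and adjusted by Benjamini-Hochberg over 21042 genes. The 2 residual degrees of freedom joined a prior of 5.65. The interaction with sex was fitted likewise, and female against male levels were fitted on separate channels with an intraspot correlation of 0.552. P values rest on the spread between pools that was left after the fitted terms, dye among them, and was moderated by a prior. The SD printed beside a ratio also contains the dye effect, so the SD and the p value describe different spreads. The methods' SAM was not rerun, and unpaired channels in limma stand in its place. The fits were tested on simulated data, where the interaction fit also called unchanged genes, in numbers that depended on the simulated spread. Figures were drawn with matplotlib 3.10.9 in Python 3.11.15.

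Members and lists were chosen with earlier results of these data known. The genes named were the members with all probes, *Tbx2*, *Sox2*, in each of the 4 lists of receptor-related genes the called genes or else the 2 largest ratios, and the 5 genes nearest to *Nr2e1*. Other genes of these lists and all tissue markers were named with their values in view. Positions are those of the files (mm9). No mm9 annotation was used, so the exon or untranslated region under a probe was not analysed here. The files' header names a custom design and the methods a catalogue array, and probe identities are those of the files. Pools on 1 array share its number, sex and hybridisation, which is where the pairing comes from. Alternatives were Agilent's processed signals, an offset of 10, median centring, other filters on dim probes, no dye term, the mean over probes, separate channels with or without an array block, the series value table and leaving out each array. Values of some single genes in the lists are not reported here.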

Additional observations from a re-analysis of the deposited data

How the results depend on the processing

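With 4 arrays and a dye term, leaving out 1 array, dropping the dye term or separating the channels could not move a ratio by its SD. Leaving out 1 array moved small ratios by over 1.5 times. *Nr2f1* was 0.028 without array 1, 0.13 without array 2 and −0.025 without array 4, and −0.10 with the mean over probes. *Nr2f2* was 0.028 without array 2 and 0.085 without array 4, *Nr2f6* 0.045 without array 4, *Rorb* −0.067 without array 2 and −0.021 without array 4, and *Esrrg* −0.045 without array 2 and −0.044 without array 3. Median centring gave 0.011 for *Nr2f1*, 0.024 for *Nr2f2* and 0.042 for *Nr2f6*. The mean over probes gave −0.091 for *Rorb*, −0.043 for *Esrrg* and 0.068 for *Thra*. Over all genes, calls went from 28 higher and 65 lower to 52 and 117 with Agilent's processed signals and 42 and 99 with the series value table, and to 23 and 53 in the separate channels with no replicate block. With the array as the replicate block the channels gave 28 and 65. Among the 10 receptors the same gene passed with and without the block, from which nothing is read. Calls of other receptors were not compared in this way. The median ratio of the receptors was 0.033 with median centring and 0.053 to 0.086 without 1 array. Of the other nuclear receptors 0 were called higher when all 8 measurements had to be above background, a filter that leaves out *Esr1* and was added to the gene lists after seeing the data. Of the thyroid hormone genes 1 was called lower with Agilent's processed signals. Interaction calls over all genes were 19 with median centring and 0 otherwise. Genes differing between the sexes numbered 28 with median centring, 4 when all 8 measurements had to be above background, 31 with no array block and 5 to 7 without 1 array, where the intraspot correlation of the 4 arrays was kept. The cause of these shifts was not tested. The interaction could not be fitted without 1 array, which leaves no residual degrees of freedom.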
